A study of Mus musculus with 11 samples.

Results

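The regulatory T cell genes described here are Foxp3, Il2ra, Il2rb, Ikzf2, Tnfrsf4 and Tnfrsf18, which were taken by gene symbol as 6 of the 10885 genes of a deposited RNA-seq table. Their identifiers in that table are ENSMUSG00000039521 for Foxp3, ENSMUSG00000026770 for Il2ra, ENSMUSG00000068227 for Il2rb, ENSMUSG00000025997 for Ikzf2, ENSMUSG00000029075 for Tnfrsf4 and ENSMUSG00000041954 for Tnfrsf18. Each was read in 11 libraries, as deposited and relative to Cd3e, which encodes the epsilon chain of the CD3 complex that T cells carry.

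RNA came from dissociated whole-tissue cells of lymph node (LN) and spleen of 6 mice, all of them immunised intraperitoneally with sheep red blood cells in 3 rounds over 3 months and sampled 1 month after the last. KI mice (Igk-BCL2, mice 5 and 6) carried BCL2 knocked into the immunoglobulin kappa locus, Tg mice (3'RR-BCL2, mice 3 and 4) carried transgenic BCL2 driven by the immunoglobulin heavy chain 3' regulatory region, and Wt mice (mice 1 and 2) carried neither. Both drivers are immunoglobulin elements, described in the series' title as specific to B cells. Each tissue and genotype had 2 libraries except Tg spleen, which had 1, from mouse 4. The values are a normalised signal, gene reads divided by a factor for each library, and the 6 genes rested on 136 to 8054 recovered reads in a LN library and on 151 to 6283 in a spleen library. Mouse 1 was female by Xist and the other 5 were male by Ddx3y, and the LN library of mouse 1 was the shallowest, at 11128568 reads. The p-values rest on a spread for each gene that was pooled over all groups with 2 libraries, in both tissues, and moderated over all genes. That spread comes from no more than 2 mice of a genotype.

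Regulatory T cells are CD4 T cells that restrain other lymphocytes and maintain self-tolerance, and in spleen and lymph node they also limit germinal centre responses. Foxp3 is the transcription factor that specifies them, and Ikzf2 (Helios) is a zinc finger factor found in many of them. They consume interleukin-2 through a receptor whose alpha chain is Il2ra (CD25) and whose beta chain is Il2rb (CD122), and they display the costimulatory TNF receptors Tnfrsf4 (OX40) and Tnfrsf18 (GITR). Ikzf2 and the receptor genes of the group are not confined to regulatory T cells. Il2rb is abundant on natural killer and memory CD8 T cells, and Il2ra, Tnfrsf4 and Tnfrsf18 appear on activated conventional T cells.

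The deposited data placed the 6 genes at very different levels. Per kilobase of exon, the signal in Wt LN averaged 976 for Il2rb, 255 for Tnfrsf18, 200 for Tnfrsf4, 104 for Foxp3, 42.8 for Il2ra and 33.8 for Ikzf2. On the same per-kilobase scale Il2rb was also the highest of the 6 in KI LN, at 575, and in Tg LN, at 1144. The Foxp3 signal lay between 191 and 755 in the 11 libraries, and no library was without it.

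RefSeq promoter entries of GRCm38.p6, windows that run from upstream of a start site to just past it, were found for 4 of the 6 genes. Between KI and Wt libraries as deposited, Il2ra was called higher in LN, Tnfrsf4 lower in spleen and Tnfrsf18 lower in both tissues. The promoters of these 3 genes are shown. Both strands of each were searched for the kappaB consensus, for the STAT motif TTCNNNGAA and for the AP-1 motif TGANTCA, and capitals mark every matching base. Tnfrsf4 and Tnfrsf18 lie close together on chromosome 4 and Il2ra on chromosome 2.
Il2ra, chr2:11642542-11642841, plus strand: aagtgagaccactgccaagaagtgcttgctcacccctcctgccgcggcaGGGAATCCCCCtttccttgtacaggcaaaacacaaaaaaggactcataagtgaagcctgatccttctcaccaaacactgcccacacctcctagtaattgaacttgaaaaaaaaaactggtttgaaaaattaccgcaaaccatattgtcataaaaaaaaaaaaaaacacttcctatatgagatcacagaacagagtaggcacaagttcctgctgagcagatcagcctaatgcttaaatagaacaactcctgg
Tnfrsf4, chr4:156013445-156013744, plus strand: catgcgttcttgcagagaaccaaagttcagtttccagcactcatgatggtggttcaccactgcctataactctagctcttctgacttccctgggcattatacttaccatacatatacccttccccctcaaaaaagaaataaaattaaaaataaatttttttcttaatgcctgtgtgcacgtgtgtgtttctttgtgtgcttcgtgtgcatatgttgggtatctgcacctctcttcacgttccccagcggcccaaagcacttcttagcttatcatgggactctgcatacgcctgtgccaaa
Tnfrsf18, chr4:156026072-156026371, plus strand: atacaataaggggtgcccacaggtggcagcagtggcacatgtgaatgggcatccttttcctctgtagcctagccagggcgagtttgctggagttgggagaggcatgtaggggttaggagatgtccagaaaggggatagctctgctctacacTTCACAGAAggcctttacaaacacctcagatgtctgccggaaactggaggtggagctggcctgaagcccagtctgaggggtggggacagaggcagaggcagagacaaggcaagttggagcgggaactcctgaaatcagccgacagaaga
The Il2ra promoter held 3 overlapping kappaB matches, which together spanned bases -201 to -191 from the start site. The Tnfrsf18 promoter held 1 STAT match at bases -99 to -91, and the Tnfrsf4 promoter held no match to the 3 motifs. A Foxp3 entry, not shown, held 1 STAT match at bases -139 to -131, and another Foxp3 entry held no match. Of 32851 promoters of the same length, 8.46% held a kappaB match, 8.3% a STAT match and 7.81% an AP-1 match. Whether any match bears on the changes between KI and Wt was not tested. The authors' reads were placed on GRCm39, so these positions are those of the RefSeq table and not of the counts.

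In KI lymph nodes the receptor genes of the group moved in opposite directions while Foxp3 did not pass the test. Il2ra rose and Tnfrsf18 fell against Wt LN, and Foxp3, Il2rb, Ikzf2 and Tnfrsf4 were not called. A gene was called at a limma adjusted p under 0.05, with adjustment over all genes. That gave 2 of the 6 genes, against 26.0% of all genes called in the same comparison.

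Foxp3 had a signal of 442 and 368 in KI LN, against 327 and 624 in Wt LN. The 2 KI values lay between the 2 Wt values, which were far apart. The log2 difference was -0.16 ± 0.33 (SE, limma adjusted p = 0.765).

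Il2ra had 347 and 403 in KI LN, against 219 and 269 in Wt LN. Both KI libraries were above both Wt libraries, and the log2 difference was 0.62 ± 0.20 (limma adjusted p = 0.0428). Il2rb had 2247 and 2684 in KI LN, against 2904 and 5460 in Wt LN. Both KI libraries were below both Wt libraries, yet the Wt values were so unequal that the difference of -0.70 ± 0.44 did not pass (limma adjusted p = 0.311).

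Ikzf2 had 473 and 447 in KI LN, against 276 and 510 in Wt LN, and the groups overlapped. Its log2 difference was 0.29 ± 0.39 (limma adjusted p = 0.638). Tnfrsf4 had 181 and 209 in KI LN, against 253 and 293 in Wt LN. The groups did not overlap, but the difference of -0.48 ± 0.19 missed the threshold (limma adjusted p = 0.0816). Tnfrsf18 had 213 and 253 in KI LN, against 353 and 424 in Wt LN. Both KI libraries lay clearly below, with a log2 difference of -0.74 ± 0.17 (limma adjusted p = 0.0105).

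Single libraries decided several of these LN results. The Il2ra call was lost without either Wt LN library (0.47 without mouse 1 and 0.77 without mouse 2) or either KI LN library (0.73 without mouse 5 and 0.51 without mouse 6), as well as without either KI spleen library, which changed the spread but not the value. It was lost in 13 of 30 alternatives, among them quantile normalisation (0.48, limma adjusted p = 0.0913), under which Tnfrsf4 was called instead (-0.64, limma adjusted p = 0.0242). The Tnfrsf18 call ended when LN Wt mouse 2 (-0.60) or LN KI mouse 5 (-0.61) was dropped. The Foxp3 difference was -0.63 without Wt mouse 1 and 0.30 without Wt mouse 2, and that of Ikzf2 was -0.15 without Wt mouse 1.

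**Figure D1:**
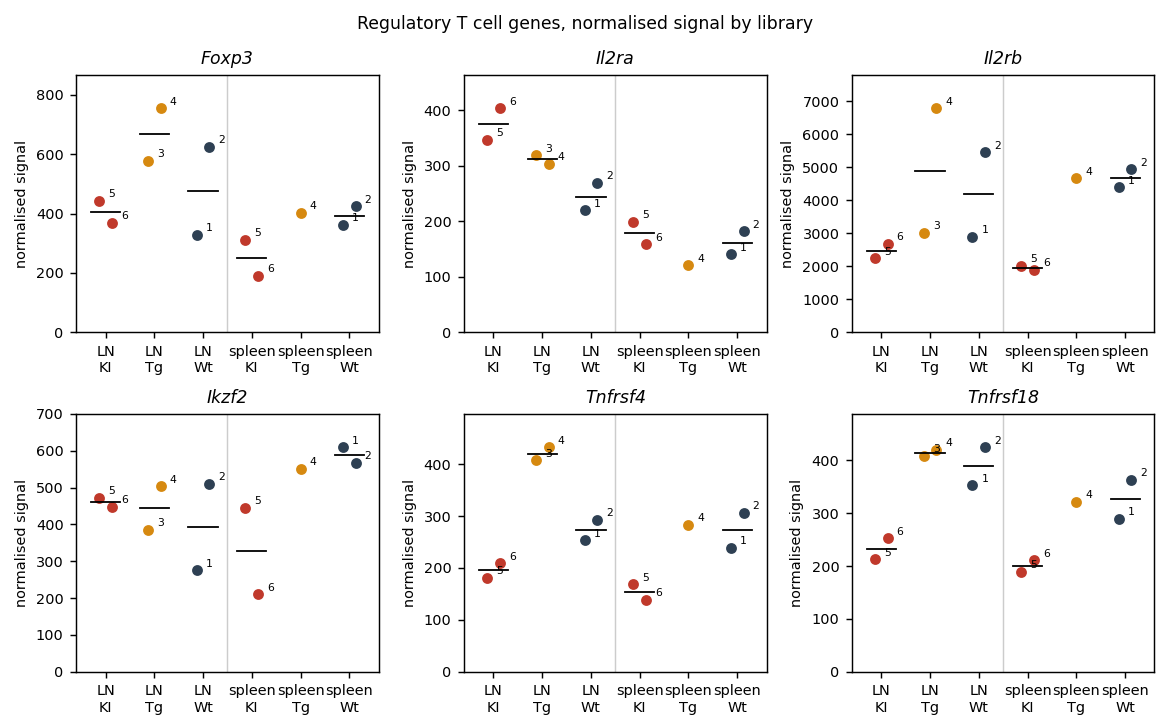
Normalised signal (y axis, from 0) of the 6 regulatory T cell genes in LN and spleen of KI, Tg and Wt mice. Each point is 1 library numbered by mouse and bars are means of 2 libraries. Il2ra is highest in KI LN, at 347 and 403, and Tnfrsf18 is lowest in KI spleen, at 189 and 211.

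In KI spleens Tnfrsf4 and Tnfrsf18 fell against Wt spleen, and the other 4 genes were not called. The 2 genes called compare with 16.8% of all genes called. Both KI libraries were below both Wt libraries in 5 of the 6 genes, Il2ra being the exception, and in 31.9% of all genes.

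Foxp3 had 312 and 191 in KI spleen, against 361 and 424 in Wt spleen. The groups did not overlap, and the KI libraries differed more from each other than the Wt libraries did. The log2 difference was -0.68 ± 0.33 (limma adjusted p = 0.197). Ikzf2, the other transcription factor, had 445 and 210 in KI spleen, against 609 and 567 in Wt spleen. As for Foxp3, KI mouse 6 was the lowest and both Wt libraries were above both KI libraries, and its difference was -0.94 ± 0.39 (limma adjusted p = 0.146).

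Il2ra had 199 and 158 in KI spleen, against 140 and 182 in Wt spleen. The groups overlapped and the difference was 0.15 ± 0.20 (limma adjusted p = 0.634). Il2rb had 2022 and 1897 in KI spleen, against 4401 and 4942 in Wt spleen. The groups lay well apart, with a fitted fold of 0.42, but the spread of this gene in the other groups gave a wide error, and the difference of -1.25 ± 0.44 was not called (limma adjusted p = 0.111).

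Tnfrsf4 had 168 and 138 in KI spleen, against 239 and 307 in Wt spleen. Tnfrsf18 had 189 and 211 in KI spleen, against 290 and 363 in Wt spleen. Neither gene overlapped between the groups, with differences of -0.82 ± 0.19 for Tnfrsf4 (limma adjusted p = 0.0146) and -0.70 ± 0.17 for Tnfrsf18 (limma adjusted p = 0.0211). In spleen, leaving out Wt mouse 2 (-0.64), KI mouse 6 (-0.68) or both libraries of mouse 5 (-0.96) ended the Tnfrsf4 call. The Tnfrsf18 call ended when Wt mouse 2 (-0.54), KI mouse 5 (-0.62) or KI mouse 6 (-0.78) was left out.

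Whether the KI effect differed between the tissues was tested as an interaction, in which 0.955% of all genes and 0 of the 6 genes were called. Of these 6, 0 also had an unadjusted p under 0.05. Ikzf2 came nearest, with an effect 1.23 ± 0.55 higher in LN than in spleen (unadjusted p = 0.0593, limma adjusted p = 0.367). The interaction was 0.51 ± 0.47 for Foxp3, 0.47 ± 0.28 for Il2ra and -0.04 ± 0.25 for Tnfrsf18. The Ikzf2 differences, positive in LN and negative in spleen and called in neither, are therefore not shown to differ.

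Cd3e itself was lower in the KI libraries, at 1868 and 1797 in KI LN against 3575 and 3338 in Wt LN, and at 1050 and 1022 in KI spleen against 1661 and 1692 in Wt spleen. The log2 difference of Cd3e was -0.91 ± 0.12 in LN (limma adjusted p = 0.000395) and -0.69 ± 0.12 in spleen (limma adjusted p = 0.00386). In whole tissue, fewer T cells, less RNA per T cell and a larger share of RNA from other cells cannot be told apart. Immunoglobulin genes took 5.25% to 9.46% of the signal in KI libraries and 0.662% to 2.49% in the others, and their part in these differences was not tested beyond the rescaling given with the alternatives.

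Relative to Cd3e, Foxp3, Il2ra and Ikzf2 rose in KI LN, and Il2ra also rose in KI spleen. Dividing by a gene that fell raises most of the table. Which cells carried each transcript was not tested, so these ratios are not levels per T cell. In LN 83.1% of all genes were called on this scale, with a median difference of 0.89, so the 3 of 6 called are read against that background. In spleen 1 of the 6 was called, against 71.8% of all genes and a median of 0.70.

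Il2ra was 18.6% and 22.4% of the Cd3e signal in KI LN, against 6.13% and 8.06% in Wt LN. The groups were far apart, and the log2 difference relative to Cd3e was 1.54 ± 0.24 (limma adjusted p = 0.000196). In spleen Il2ra was 19.0% and 15.5% of Cd3e in KI mice, against 8.44% and 10.7% in Wt mice, a log2 difference of 0.85 ± 0.24 (limma adjusted p = 0.00869). In LN the value of Il2ra was above the median of all genes on this scale, which was 0.89. In spleen the median of 0.70 lay within the standard error of Il2ra, and as deposited Il2ra was not called there. Its LN call was kept in all 29 alternatives that gave a value, between 1.22 and 1.73, while its spleen call ended when spleen Wt mouse 1 (0.67) or spleen KI mouse 5 (0.70) was dropped and with Cd4 as the divisor (0.55, limma adjusted p = 0.128).

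Foxp3 was 23.7% and 20.5% of Cd3e in KI LN, against 9.16% and 18.7% in Wt LN. The groups did not overlap, though Wt mouse 2 came close to the KI values, and the difference was 0.75 ± 0.31 (limma adjusted p = 0.0438), below the median of all genes. The call was lost in 17 of 29 alternatives, with 0.24 without Wt mouse 1, 0.65 without KI mouse 5 and 0.86 without KI mouse 6 in LN, and at an unchanged value without either Tg LN or either Wt spleen library. With Cd4 as the divisor it was 0.44 (limma adjusted p = 0.14). In spleen Foxp3 was 29.7% and 18.7% of Cd3e in KI mice, against 21.7% and 25.1% in Wt mice, so that the Wt values lay inside the KI range, and the difference was 0.02 ± 0.31.

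Ikzf2 was 25.3% and 24.9% of Cd3e in KI LN, against 7.71% and 15.3% in Wt LN, with a difference of 1.21 ± 0.36 (limma adjusted p = 0.0107). The median of all genes, 0.89, lay within the standard error of Ikzf2, and as deposited Ikzf2 was not called in LN (0.29). Without Wt mouse 1 in LN the value was 0.72 and the call was lost, as it was with the mean of the CD3 genes as divisor (1.17, limma adjusted p = 0.055). In spleen it was 42.4% and 20.5% of Cd3e in KI mice, against 36.7% and 33.5% in Wt mice, a difference of -0.25 ± 0.36. The KI spleens thus enclosed the Wt spleens for both transcription factors.

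Il2rb, Tnfrsf4 and Tnfrsf18 were not called relative to Cd3e in either tissue. Il2rb was 120% and 149% of Cd3e in KI LN, against 81.2% and 164% in Wt LN. In spleen it was 193% and 186% in KI mice, against 265% and 292% in Wt mice. Tnfrsf4 was 9.69% and 11.6% in KI LN, against 7.08% and 8.78% in Wt LN (0.43 ± 0.22, limma adjusted p = 0.0832). Tnfrsf18 was 11.4% and 14.1% in KI LN, against 9.88% and 12.7% in Wt LN (0.18 ± 0.21). In spleen both TNF receptor genes overlapped between the genotypes, at -0.13 ± 0.22 for Tnfrsf4 and -0.01 ± 0.21 for Tnfrsf18. On this scale the interaction of genotype and tissue called 0 of the 6 genes and 1.59% of all genes, with Ikzf2 at 1.45 ± 0.51 (unadjusted p = 0.0179, limma adjusted p = 0.199).

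**Figure D2:**
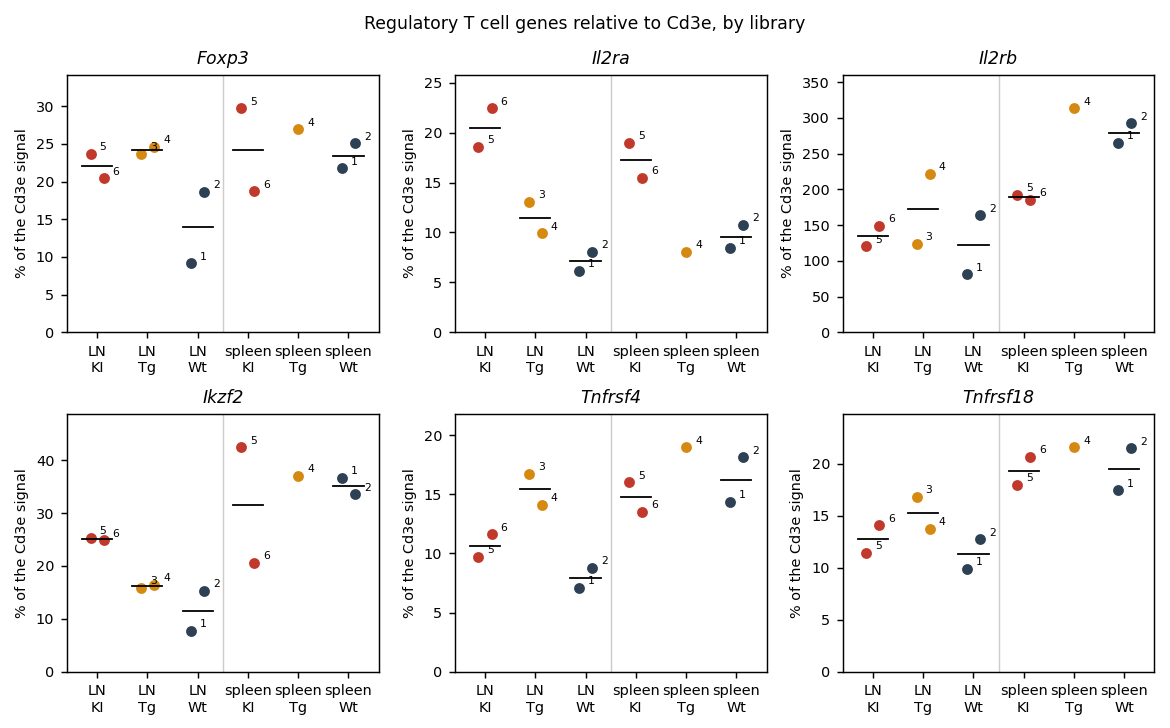
Signal of the 6 genes as a percentage of the Cd3e signal of the same library (y axis, from 0), by tissue and genotype. Points are libraries numbered by mouse and bars are means of 2 libraries. Il2ra reaches 18.6% and 22.4% in KI LN and 19.0% and 15.5% in KI spleen, above every other library.

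In Tg lymph nodes all 6 genes had a mean above that of Wt LN, and 0 of them were called. Of all genes 0% were called, while 532 had an unadjusted p under 0.05. On recovered reads edgeR and voom also called 0 genes and DESeq2 called 29. Foxp3 had 577 and 755 in Tg LN, against 327 and 624 in Wt LN. The highest Foxp3 value of the 11 libraries was that of Tg mouse 4, but the groups overlapped, and the difference was 0.55 ± 0.33 (limma adjusted p = 0.96).

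Tnfrsf4 had 408 and 432 in Tg LN, against 253 and 293 in Wt LN. The groups were clear of each other and the difference was 0.62 ± 0.19, with an unadjusted p of 0.00697 and a limma adjusted p of 0.874. Il2ra had 318 and 304 in Tg LN, against 219 and 269 in Wt LN, also with no overlap (0.36 ± 0.20, limma adjusted p = 0.96). Il2rb was split between the mice, at 3015 and 6797 in Tg LN against 2904 and 5460 in Wt LN (0.19 ± 0.44). Ikzf2 had 385 and 504 in Tg LN, against 276 and 510 in Wt LN (0.23 ± 0.39). Tnfrsf18 had 409 and 419 in Tg LN, against 353 and 424 in Wt LN (0.10 ± 0.17). In all 3 of these genes the Tg values overlapped those of Wt.

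In Wt LN mouse 1 had the lower value of all 6 genes, and in Tg LN mouse 3 had the lower value of 5 of the 6, all but Il2ra. These 2 libraries were also the shallowest. Without Wt mouse 1 the LN differences of Ikzf2 (-0.21), Tnfrsf18 (-0.04) and Il2rb (-0.27) changed sign, as did that of Il2rb without Tg mouse 4 (-0.40).

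Relative to Cd3e 0.0551% of all genes were called in Tg LN, which is 6 genes, and 0 of the 6 genes described here. Tnfrsf4 was 16.7% and 14.1% of Cd3e in Tg LN, against 7.08% and 8.78% in Wt LN (0.96 ± 0.22, limma adjusted p = 0.14). Foxp3 was 23.7% and 24.6% of Cd3e in Tg LN, against 9.16% and 18.7% in Wt LN (0.89 ± 0.31, limma adjusted p = 0.145). The Tg libraries were above the Wt libraries without overlap for 5 of the 6 genes, all but Il2rb, and for 59.4% of all genes, on a scale where the median of all genes was 0.32.

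In spleen the 1 Tg library gave 402 for Foxp3, 4672 for Il2rb, 283 for Tnfrsf4 and 321 for Tnfrsf18, each between the 2 Wt values. Ikzf2, at 552, and Il2ra, at 121, were below both Wt spleens (567 for Ikzf2 and 140 for Il2ra in the lower Wt spleen). The largest of these differences was that of Il2ra, -0.40 ± 0.25 (limma adjusted p = 1). Neither as deposited nor relative to Cd3e was a gene of the 6 or of the whole table called here, 0% in both, and 164 genes had an unadjusted p under 0.05 as deposited and 459 relative to Cd3e. The fit assumed that this lone library varied like the other groups.

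**Figure D3:**
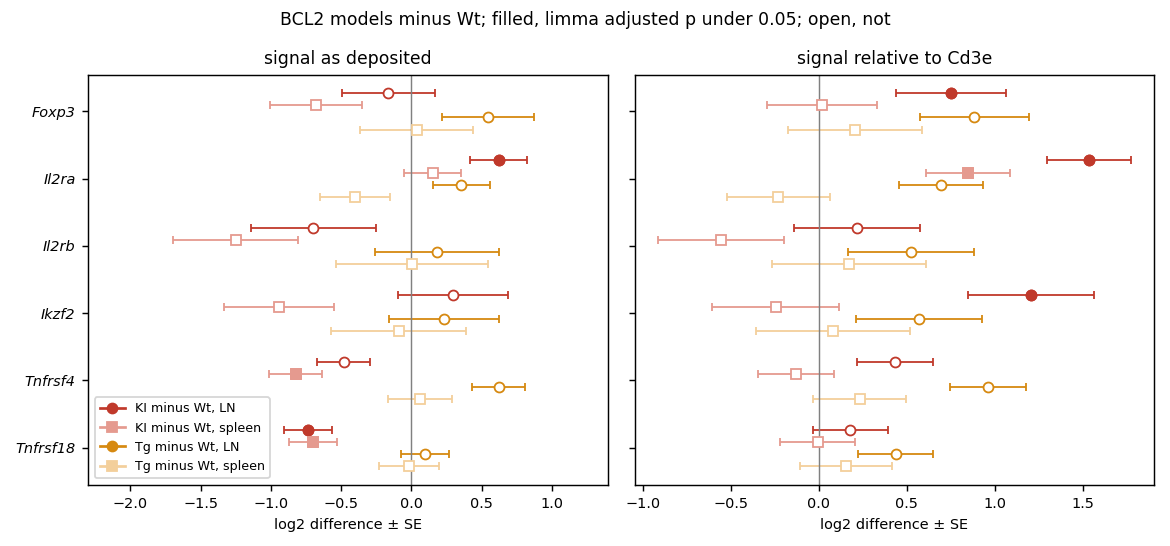
Log2 differences of KI and Tg from Wt for the 6 genes in LN (circles) and spleen (squares), as deposited (left) and relative to Cd3e (right). Bars are standard errors and filled symbols passed limma's adjusted p. As deposited Il2ra stands at 0.62 and Tnfrsf18 at -0.74 in KI LN, and relative to Cd3e Il2ra stands at 1.54.

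Set directly against Tg, the KI libraries were lower in Tnfrsf4 and Tnfrsf18 in LN and in Tnfrsf4 in spleen. The KI libraries are those also compared with Wt, so these comparisons are not independent of the earlier ones. In LN Tnfrsf4 averaged 195 ± 19.9 in KI and 420 ± 17.3 in Tg mice (SD, n = 2 each), and on the log2 scale KI minus Tg was -1.11 ± 0.19 (limma adjusted p = 0.00206). This call was kept in all 30 alternatives, between -1.235 and -1.001. Tnfrsf18 averaged 233 ± 28.2 in KI LN and 414 ± 7.38 in Tg LN (SD, n = 2 each; -0.83 ± 0.17, limma adjusted p = 0.00627), and its call was lost without KI mouse 5 (-0.71).

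Foxp3 was lower in both KI LN libraries than in both Tg LN libraries (-0.71 ± 0.33, limma adjusted p = 0.148), as was Il2rb (-0.88 ± 0.44, limma adjusted p = 0.199). Il2ra was higher in KI LN without overlap (0.27 ± 0.20, limma adjusted p = 0.361), and Ikzf2 overlapped (0.06 ± 0.39). Thus 2 of the 6 were called, against 26.7% of all genes. In spleen 1 of the 6, Tnfrsf4, was called (-0.89 ± 0.23, limma adjusted p = 0.0413), against 7.71% of all genes, and the call was lost when any of the 4 KI libraries was left out (-1.03 to -0.75) or mouse 1 or 2 in both tissues (-0.89).

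Relative to Cd3e, Il2ra rose in KI against Tg in LN (0.84 ± 0.24, limma adjusted p = 0.011) and in spleen (1.08 ± 0.29, limma adjusted p = 0.0167). It was the 1 gene of the 6 called on this scale in each tissue, where 64.3% of all genes were called in LN and 42.6% in spleen. The medians of all genes on this scale were 0.59 in LN and 0.53 in spleen. Cd3e itself differed by -0.575 in LN and -0.525 in spleen. As deposited Il2ra was called in neither tissue, at 0.27 in LN and 0.55 in spleen. The LN call relative to Cd3e was lost without Tg mouse 4 (0.64) or KI mouse 6 (0.70) and with Cd4 as divisor (0.49). The spleen call was lost without KI mouse 5 (0.93) or without both libraries of mouse 6 (1.22). Tnfrsf4 in LN missed the threshold on this scale (-0.53 ± 0.22, limma adjusted p = 0.0503), and passed it with the mouse as a replicate block (limma adjusted p = 0.0499), which made 2 of the 6 genes called.

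Between the tissues, with genotype as a term, Il2ra was higher in LN than in spleen. The signal of Il2ra was 219 to 403 in the 6 LN libraries and 121 to 199 in the 5 spleen libraries, so that the tissues did not overlap, and the difference was 0.97 ± 0.14 (limma adjusted p = 0.00079). That was 1 of the 6, against 15.1% of all genes. Foxp3 (0.53 ± 0.20, limma adjusted p = 0.108), Tnfrsf18 (0.27 ± 0.10, limma adjusted p = 0.0982) and Tnfrsf4 (0.28 ± 0.12, limma adjusted p = 0.174) were not called, and Il2rb (0.03 ± 0.24) and Ikzf2 (-0.10 ± 0.28) stood near 0.

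Relative to Cd3e the order turned. Il2rb (-0.89 ± 0.22), Ikzf2 (-1.02 ± 0.29), Tnfrsf4 (-0.64 ± 0.15) and Tnfrsf18 (-0.65 ± 0.12) were lower per Cd3e signal in LN than in spleen, with limma adjusted p between 0.000307 and 0.00659. Foxp3 (-0.39 ± 0.21, limma adjusted p = 0.0902) and Il2ra (0.05 ± 0.18) were not called. The Ikzf2 call was lost without both libraries of mouse 4 (-0.96). On this scale 93.5% of all genes were called, with a median of -0.90. Cd3e itself was 0.92 ± 0.07 higher in LN.

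Ranked over the 6 groups of tissue and genotype, the mean Foxp3 signal was 666 in Tg LN, 475 in Wt LN, 405 in KI LN, 402 in Tg spleen, 393 in Wt spleen and 252 in KI spleen. Neighbours in that order overlapped except Wt spleen and KI spleen. Il2ra ran 375 in KI LN, 311 in Tg LN, 244 in Wt LN, 179 in KI spleen, 161 in Wt spleen and 121 in Tg spleen, and of these neighbours KI spleen and Wt spleen overlapped. For Il2rb, Tnfrsf4 and Tnfrsf18 the 2 lowest groups were KI LN and KI spleen, at means of 2465 and 1960 for Il2rb, 195 and 153 for Tnfrsf4, and 233 and 200 for Tnfrsf18. Ikzf2 was highest in Wt spleen, at 588, and lowest in KI spleen, at 328.

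Over the 11 libraries the TNF receptor genes had the highest correlation of any pair among the 6. Tnfrsf4 and Tnfrsf18 had a Pearson r of 0.92 on the log2 scale and 0.89 in the 6 LN libraries. In the 7 libraries without KI their r was 0.75, below Il2ra with Tnfrsf18 (0.91) and Foxp3 with Tnfrsf4 (0.84) or Tnfrsf18 (0.83). In RefSeq these neighbours on chromosome 4 are separated by noncoding genes, and both overlap other annotated genes, Sdf4 for Tnfrsf4 and Gm16008 for Tnfrsf18. Foxp3 likewise overlaps Ccdc22 and Flicr and Il2ra overlaps Gm39760, and the strand setting of the counting was not given in the sources used here, so reads in shared stretches are uncertain. Foxp3 had an r of 0.85 with Tnfrsf4, 0.73 with Tnfrsf18, 0.72 with Il2rb, 0.60 with Ikzf2 and 0.48 with Il2ra. Il2ra had an r of -0.01 with Ikzf2 and -0.11 with Il2rb over the 11 libraries, and without KI it had 0.74 with Foxp3 and 0.72 with Tnfrsf4. These values describe libraries that share mice, normalisation and T cell content.

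The 5 genes most like Foxp3 over the same libraries were Lrrc32 (r = 0.95), Crmp1 (0.94), Icos (0.93), Pigl (0.93) and Vmn2r84 (0.93). Lrrc32 encodes GARP, a surface protein of regulatory T cells, and it kept an r of 0.87 relative to Cd3e and 0.96 in the 7 libraries without KI. Its signal was 268 and 176 in KI LN, 313 and 435 in Tg LN and 103 and 411 in Wt LN. Like Foxp3, Lrrc32 was far lower in Wt mouse 1 than in Wt mouse 2. Relative to Cd3e the r with Foxp3 was 0.81 for Crmp1, 0.73 for Icos, 0.67 for Pigl and 0.84 for Vmn2r84. The 5 genes with the highest mean r with the 6 were Pigl (0.74), Dbf4 (0.72), Ctla4 (0.72), Iffo2 (0.71) and Rab8b (0.71). Relative to Cd3e the mean r was 0.36 for Ctla4, 0.70 for Pigl, 0.69 for Dbf4, 0.76 for Iffo2 and 0.70 for Rab8b.

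**Figure D4:**
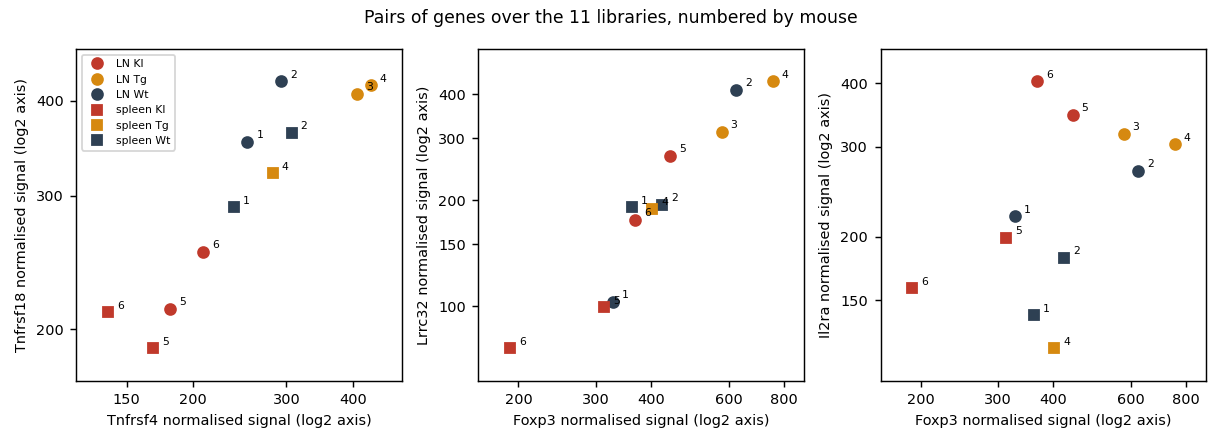
Pairs of genes over the 11 libraries, normalised signal on log2 axes, with circles for LN and squares for spleen, coloured by genotype and numbered by mouse. Tnfrsf4 and Tnfrsf18 run together (r = 0.92), as do Foxp3 and Lrrc32 (r = 0.95), while the KI LN libraries lie above the others in Il2ra at a given Foxp3 (r = 0.48).

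Other genes known from regulatory T cells were read from a list of 20, of which 18 were in the table. In KI spleen 7 of the 18 fell and 0 rose, where 16.8% of all genes were called. Their median was -0.81, against 0.01 for all genes and -1.05 for the 14 T cell reference genes described below. Relative to Cd3e 5 rose and 2 fell in KI spleen, with a median of -0.12. On that scale 71.8% of all genes were called there, with a median of 0.70. Ctla4, the inhibitory receptor that competes for CD28 ligands, had 216 and 143 in KI spleen, against 1255 and 1089 in Wt spleen (-2.73 ± 0.60, limma adjusted p = 0.0339). Il10, which encodes an anti-inflammatory cytokine, had 13.7 and 11.5 in KI spleen, against 79.8 and 73.1 in Wt spleen (-2.52 ± 0.48, limma adjusted p = 0.0071). In both genes the KI spleens lay far below the Wt spleens. Itgae, the CD103 integrin chain, fell by 0.96, Tnfrsf9 (4-1BB) by 0.83 and Izumo1r, a folate receptor relative on regulatory T cells, by 0.79 on the log2 scale. Icos had 360 and 210 in KI spleen, against 913 and 649 in Wt spleen, and was not called (limma adjusted p = 0.0642).

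In KI LN 4 of the 18 fell and 2 rose, where 26.0% of all genes were called. Their median was -0.43, against -0.02 for all genes and -0.995 for the 14 T cell reference genes. Relative to Cd3e 3 rose and 1 fell in KI LN, with a median of 0.49. On that scale 83.1% of all genes were called there, with a median of 0.89. Itgae had 529 and 518 in KI LN, against 1467 and 1352 in Wt LN (-1.43 ± 0.19, limma adjusted p = 0.000447), and Ccr6, a chemokine receptor, fell by 1.28. Tnfrsf9 fell by 1.05 and Capg, an actin capping protein, by 0.75. Entpd1, the ectonucleotidase CD39, had 548 and 533 in KI LN, against 185 and 256 in Wt LN (1.31 ± 0.19, limma adjusted p = 0.000748). Nt5e, the ectonucleotidase CD73 that acts after it, also rose (0.71 ± 0.23, limma adjusted p = 0.0458). Both ectonucleotidases are also present on B cells, and 4 of the 6 B cell markers and 6 of the 7 plasma cell markers rose in KI LN. The part of those cells was not tested.

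In Tg LN 0 of the 18 were called, and their median was 0.30 against -0.02 for all genes. Ctla4 had 1987 and 2087 in Tg LN, against 419 and 1581 in Wt LN, again with the low value in mouse 1 (1.32 ± 0.60, limma adjusted p = 0.96). Summed over the 18 genes, the signal was 10795 and 9972 in KI LN, 18752 and 21736 in Tg LN and 12364 and 18110 in Wt LN. It was 11746 and 9680 in KI spleen, 16500 in Tg spleen and 18064 and 16031 in Wt spleen. The KI libraries had the lowest sums in both tissues.

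The interleukin-2 receptor pathway was read from a list of 13 genes, of which 11 were in the table and Il2 and Il15 were not. In KI LN 6 fell and 0 rose, with a median of -0.42, and in KI spleen 4 fell and 0 rose, with a median of -0.44. Relative to Cd3e 6 rose and 0 fell in KI LN (median 0.495), and 4 rose and 1 fell in KI spleen (median 0.259). Il2rg, the common gamma chain that completes the receptor, had 2720 and 2712 in KI LN, against 4502 and 4648 in Wt LN (-0.75 ± 0.10, limma adjusted p = 0.000569). It fell by 0.46 in KI spleen. In LN the gamma chain thus fell while Il2ra rose, and the beta chain was not called. Stat5a, a transcription factor activated by the receptor, fell by 0.51 in KI LN and the kinase Jak1 by 0.52. The feedback inhibitors Socs3 and Cish each fell by 1.25 in KI spleen and Socs1 by 0.68.

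Of 16 genes listed as partners that act with or on Foxp3, 7 fell and 2 rose in KI LN, and 5 fell and 0 rose in KI spleen. The list medians were -0.43 in KI LN and -0.32 in KI spleen. Relative to Cd3e 8 rose and 0 fell in KI LN (median 0.486), and 5 rose and 0 fell in KI spleen (median 0.373). Gata3 had 317 and 342 in KI LN, against 734 and 860 in Wt LN (-1.27 ± 0.17, limma adjusted p = 0.000449), and fell by 1.09 in KI spleen. Satb1 (-0.91 in LN and -0.55 in spleen), Smad3 (-0.80 and -0.65) and Foxo1 (-0.47 and -0.40) fell in both tissues. Ezh2 (0.77) and Bach2 (0.68), which are also expressed in B cells, rose in KI LN. Among 3 measured relatives of Ikzf2, Ikzf3 (Aiolos) rose by 0.60 in KI LN and 0.56 in KI spleen.

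Of 10 measured TNF receptor relatives and adaptors of Tnfrsf4 and Tnfrsf18, 5 fell and 1 rose in KI LN (median -0.40), and 2 fell and 1 rose in KI spleen (median -0.27). Relative to Cd3e 8 rose and 0 fell in KI LN (median 0.518), and 5 rose and 0 fell in KI spleen (median 0.425). The shares of all genes called were 26.0% in LN and 16.8% in spleen, here and for the interleukin-2 and Foxp3 partner lists. Relative to Cd3e these shares were 83.1% in LN and 71.8% in spleen, with medians of all genes of 0.89 and 0.70. The ligand genes Tnfsf4 and Tnfsf18 were not in the table. Tnfrsf25 (DR3) fell by 0.97 and the adaptor Traf2 by 0.48 in KI LN. Traf5, an adaptor of both receptors, rose by 0.53 in KI LN and by 0.43 in KI spleen.

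**Figure D5:**
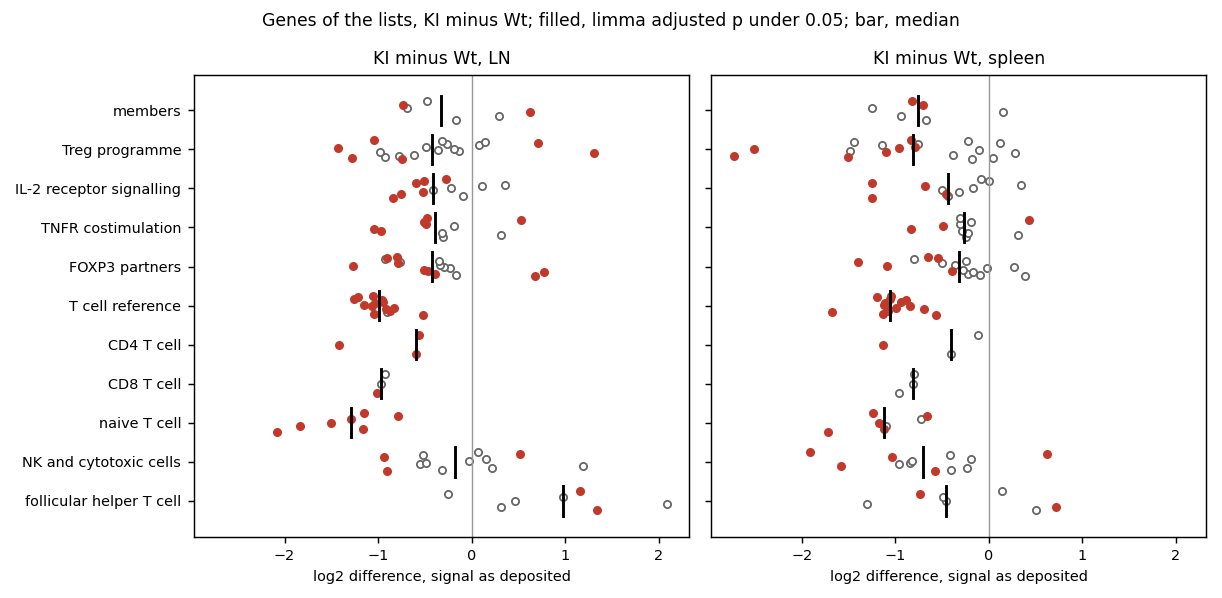
Log2 differences (x axis) of KI from Wt, signal as deposited, for the genes of 11 lists (rows) in LN (left) and spleen (right). Each point is a gene, filled where limma's adjusted p was under 0.05, and the black bar is the list's median. The T cell reference list lies near -1 (medians -0.995 in LN and -1.05 in spleen), and the 6 genes at -0.32 and -0.76.

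The other cells that could carry these transcripts were read from marker lists, with no marker at 0 in any library. Of 14 T cell reference genes 13 fell in KI LN, where 26.0% of all genes were called, and 14 in KI spleen, where 16.8% were. Their summed signal was 35683 and 43230 in KI LN, 67775 and 76175 in Tg LN and 82480 and 75188 in Wt LN, and it was 21201 and 22563 in KI spleen, 40972 in Tg spleen and 42204 and 44300 in Wt spleen. Relative to Cd3e, 0 of the other 13 T cell genes were called in KI LN (median -0.12). On that scale 83.1% of all genes were called in LN, with a median of 0.89. Foxp3 (0.75), Il2ra (1.54) and Ikzf2 (1.21) were called higher there. Foxp3 was below the median of all genes, and that median lay within the standard error of Ikzf2. In KI spleen 6 of the 13 T cell genes were called lower (median -0.36), where 71.8% of all genes were called, with a median of 0.70.

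Markers of natural killer and cytotoxic cells, which also carry Il2rb, were read beside it. Of 12 such genes, 2 fell and 1 rose in KI LN (median -0.18), where 26.0% of all genes were called, and 4 fell and 1 rose in KI spleen (median -0.70), where 16.8% were. Their summed signal was 3717 and 4691 in KI LN, 5552 and 5870 in Tg LN and 5833 and 6148 in Wt LN. In spleen it was 4284 and 5181 in KI, 6768 in Tg and 6636 and 7294 in Wt mice, so that KI was lowest in both tissues, as for Il2rb. Nkg7 fell by 0.94 in KI LN and 1.03 in KI spleen. The 1 gene that rose in each tissue was Tbx21, by 0.52 in KI LN and 0.62 in KI spleen. Ncr1, a receptor that defines natural killer cells, was at 39.5 and 65.5 in KI LN against 30.6 and 67.8 in Wt LN. The part of these cells in the Il2rb values was not tested. All 7 naive T cell genes fell in KI LN (median -1.29) and 5 of 7 in KI spleen (median -1.12). Of 7 follicular helper T cell genes 2 rose in KI LN and 0 fell (median 0.98), and in KI spleen 1 rose and 1 fell (median -0.45). Those that rose were Bcl6 (1.34) and Tox2 (1.16) in LN and Cxcr5 (0.72) in spleen, and Sh2d1a fell in spleen (-0.74). B cell markers rose in both tissues, and the part of B cells in these values was not tested. Of 3 CD4 T cell genes 3 fell in KI LN and 1 in KI spleen. Of 3 CD8 T cell genes 1 fell in KI LN, Cd8a (-1.01 ± 0.27, limma adjusted p = 0.0306), and 0 were called in KI spleen. The CD8 list medians were -0.97 in LN and -0.81 in spleen. Of 7 macrophage and dendritic cell genes 1 rose and 1 fell in KI LN and 0 were called in KI spleen, where 3 of 6 B cell genes rose and 5 of 7 plasma cell genes rose and 1 fell.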

How the data were processed

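RNA-seq of 11 libraries was read from 1 deposited table of 10885 genes, whose values are a normalised signal made by the authors, gene reads divided by a factor per library. Per the submitters' processing notes, which give no roles or order, the tools were FastQC 0.11.5, STAR 2.5, featureCounts, Subread 1.4.6 and DESeq2 1.26.0 with GRCm39. Every value could be written as a number of equal steps, and these steps returned whole reads for 100% of values within 0.05 reads, from 11128568 to 21067988 reads in LN and from 18994455 to 24110325 in spleen.

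Samples were grouped by the labels' tissue and genotype. The test was limma 3.58.1 (R 4.3.3) with trend and robust options on log2(value + 1), with 6 group means fitted to all 11 libraries and Benjamini-Hochberg adjustment over all genes, called under 0.05. A pseudocount of 1 understates changes of low genes. Relative values subtracted the library's log2(Cd3e + 1). Counts had been planned, and edgeR 4.0.16, DESeq2 1.42.0 and voom were run on the recovered reads of LN as alternatives. The main fit treated the 11 libraries as independent, also between the tissues of a mouse. Spleen and LN of a mouse share the subject label, and over all genes their deviations from the group means correlated at 0.403 in Wt and 0.900 in KI mice. With the mouse as a random term, an alternative, the consensus correlation was 0.0168 as deposited and 0.1148 relative to Cd3e. Named genes were the 6 genes, up to 4 called genes per list with the smallest p, and the 5 genes most like Foxp3 or the 6 on average. Nt5e, Ezh2, Bach2 and Ncr1 fall outside that rule and were chosen after their values were seen. The genes and lists were chosen with earlier results of these data known. The script was tested on simulated data.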

Additional observations from a re-analysis of the deposited data

Results flagged for a closer look

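The Il2ra differences between Tg and Wt libraries had opposite signs in the 2 tissues, and neither was called (limma adjusted p = 0.96 in LN and 1 in spleen). In LN both Tg libraries were above both Wt libraries, with a log2 difference of 0.36, and in spleen the 1 Tg library was below both Wt libraries, with a log2 difference of -0.40. This difference between the tissues was not tested.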

How the results depend on the processing

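Of 2670 values of the 6 genes under the alternatives, 2465 kept direction and side of the threshold, 73 lost a call, 43 gained one and 89 changed sign. For the 18 called results 436 kept the call, 73 lost it and 0 changed sign. The causes were not tested. The alternatives changed the pseudocount, filter, scaling, libraries fitted, mouse block, tool and divisor. Each of the 6 genes had at least 136 reads in every library, and 2 mice per genotype and 1 Tg spleen limit the precision.

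As deposited, 2 of the 6 genes were called in KI against Wt in LN, but 1 with a mean of at least 200 or with voom, and 0 to 2 with a library left out. In KI against Wt spleen the count was 0 to 3 with a library left out, in KI against Tg LN 1 to 3, and in LN against spleen 1 to 2. In KI against Tg spleen it was 2 with 1 tissue fitted, 3 with only the groups compared, 0 with no trend or robust option, and 0 to 1 with a library left out. Relative to Cd3e the count in KI against Wt LN was 1 with the mean of the CD3 genes as divisor and 1 to 4 with a library left out. In spleen it was 2 with 1 tissue or only the groups compared and 0 to 1 with a library left out. In Tg against Wt LN it was 2 with Cd4 as divisor and 0 to 2 with a library left out. In KI against Tg LN it was 2 with a pseudocount of 0.1, without immunoglobulin and haemoglobin genes, with quantile normalisation, with only the groups compared, with no trend, and with either other divisor, and 0 to 1 with a library left out. In KI against Tg spleen it was 2 with 1 tissue or only the groups compared and 0 to 1 with a library left out. For the interaction it was 1 with Cd4 as divisor.

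With the mouse as a replicate block (random term) the count in KI against Tg LN relative to Cd3e was 2, against 1 without it, and Il2rb in Tg against Wt spleen was -0.007. As a fixed block, Il2ra in LN against spleen relative to Cd3e was -0.019. The block changed no other count of calls among the 6 genes. Over all genes the fixed block gave 596 calls for the interaction, against 104, and 776 relative to Cd3e, against 173, where the random term gave 369.

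Signs turned in small values. Without immunoglobulin and haemoglobin genes Il2rb in Tg against Wt spleen was -0.004 and the Tnfrsf18 interaction 0.006, and with quantile normalisation Ikzf2 in KI against Tg LN was -0.039. A pseudocount of 5 gave 0.003 for Tnfrsf18 in KI against Wt spleen relative to Cd3e. With Cd4 as divisor Il2rb was -0.099 and Tnfrsf18 -0.137 in KI against Wt LN, Foxp3 was -0.277 in KI against Wt spleen, and in Tg against Wt spleen Foxp3 was -0.006, Il2rb -0.042, Ikzf2 -0.135 and Tnfrsf18 -0.059. With the mean of the CD3 genes Tnfrsf4 was 0.099 and Tnfrsf18 0.222 in KI against Wt spleen, Ikzf2 was -0.009 in Tg against Wt spleen, Foxp3 was 0.126 and Tnfrsf18 0.156 in KI against Tg spleen, and the Tnfrsf18 interaction was -0.084.

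With a library or mouse left out, as deposited, the ranges were -0.627 to 0.300 for Foxp3 and -0.148 to 0.736 for Ikzf2 in KI against Wt LN, and -0.033 to 0.338 for Il2ra in KI against Wt spleen. In Tg against Wt LN they were -0.401 to 0.771 for Il2rb, -0.211 to 0.674 for Ikzf2 and -0.035 to 0.229 for Tnfrsf18. In Tg against Wt spleen they were -0.078 to 0.153 for Foxp3, -0.081 to 0.086 for Il2rb, -0.117 to 0.244 for Tnfrsf4 and -0.178 to 0.148 for Tnfrsf18. Ikzf2 in KI against Tg LN ran from -0.131 to 0.256, the Tnfrsf18 interaction from -0.199 to 0.127, and in LN against spleen Il2rb from -0.087 to 0.192 and Ikzf2 from -0.378 to 0.136.

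Relative to Cd3e the leave-one-out ranges were -0.288 to 0.722 for Il2rb and -0.004 to 0.360 for Tnfrsf18 in KI against Wt LN. In KI against Wt spleen they were -0.315 to 0.350 for Foxp3, -0.767 to 0.275 for Ikzf2, -0.296 to 0.038 for Tnfrsf4 and -0.155 to 0.144 for Tnfrsf18. Il2rb in KI against Tg LN ran from -0.728 to 0.115, in KI against Tg spleen Foxp3 from -0.522 to 0.142 and Ikzf2 from -0.846 to 0.196, and Il2ra in LN against spleen from -0.096 to 0.176.

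Counts over all genes varied more than 1.5 times. As deposited they were 2833 (1318 to 3295) in KI against Wt LN, 1833 (624 to 2453) in KI against Wt spleen, 0 (0 to 29, the most with DESeq2) in Tg against Wt LN, where edgeR and voom gave 0, and 0 (0 to 7) in Tg against Wt spleen. They were 2910 (1228 to 3078) in KI against Tg LN, 839 (258 to 1869) in KI against Tg spleen, 104 (3 to 596) for the interaction and 1645 (1073 to 1742) in LN against spleen. Relative to Cd3e they were 9042 (5453 to 9382) in KI against Wt LN, 7815 (2918 to 9108) in KI against Wt spleen, 6 (0 to 5513) in Tg against Wt LN, 0 (0 to 26) in Tg against Wt spleen, 6994 (2243 to 8279) in KI against Tg LN, 4640 (496 to 8012) in KI against Tg spleen and 173 (2 to 776) for the interaction. Without immunoglobulin and haemoglobin genes the median of all genes in KI against Wt LN was 0.11, against -0.02 with them, and 2066 genes were higher and 879 lower, against 1502 and 1331. In spleen 1427 were higher and 816 lower, against 830 and 1003. Under that scaling Il2ra was 0.75 and Tnfrsf18 -0.60 in KI LN.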
